A study of Mus musculus with 7 samples.

Results

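The cornified envelope is the tough, cross-linked protein shell that keratinocytes build as they leave the living layers of the epidermis. The genes described here are 9 of its components and companions, Ivl, Rptn, Cnfn, Spink5, Calm4, Krtdap, Sbsn, Dmkn and Lypd3, chosen by name out of 20839 genes listed in the single-cell data. They were followed in sorted thymic epithelial cells, of which the medullary ones (mTECs) were the subject of the study, by the level of Krt10, Aire and Ccl21a in the same cell, and by library along a course of depletion and recovery. The data were droplet single-cell RNA-seq of EpCAM+ CD45- thymic cells from female mice, with 7 libraries that each held cells of 3 pooled thymi. Medullary cells were not selected further, and markers of cortical epithelium were present at 1509 CPM (UMI counts per 1000000) in cells with high Krt10 and 1761 in the others. In 1 library C57BL/6 mice of 6 weeks carried Aire-CreERT2-R26-CAG-Stopfl-zsGreen and had 2 mg tamoxifen by gavage every other day for 10 days, so that cells in which the Aire promoter drove Cre, and their descendants, kept ZsGreen (the Aire lineage tracing library). The other 6 libraries came from C57BL/6 mice given 100 ug antibody in 3 treatments within 1 week. An isotype control antibody was followed by collection at week 2 (age 4 weeks) or week 10 (age 12 weeks). Antibody against RANKL, the cytokine that mTECs need to mature, was followed by collection at weeks 2, 4, 6 and 10 (ages 4, 6, 8 and 12 weeks). With 1 library for each condition, no difference between conditions was tested, and week and age cannot be told apart.

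In the epidermis, precursors such as involucrin are laid under the membrane and fixed by transglutaminases, while secreted proteins, lipids and protease inhibitors fill and regulate the layers outside. In the thymus, keratinized cells of this kind are known from Hassall's corpuscles, the whorled bodies of the medulla, and mTECs that have passed through an Aire-expressing stage are known to take up such a program. The members fall into 3 roles. Ivl (involucrin), Rptn (repetin) and Cnfn (cornifelin) are proteins of the envelope itself. Spink5 encodes LEKTI, the inhibitor that restrains the kallikrein proteases of the skin, Lypd3 encodes a membrane-anchored protein of the Ly6 family, and Calm4 encodes a calmodulin-like calcium-binding protein of skin. Krtdap, Sbsn (suprabasin) and Dmkn (dermokine) encode proteins secreted by stratified epithelium.

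On GRCm38, 5 of the 9 members lay on chromosome 7 and 2 on chromosome 3. Sbsn (chr7:30751471-30756134, plus strand), Dmkn (chr7:30763756-30781063, plus strand) and Krtdap (chr7:30787896-30791097, plus strand) were neighbours within 39.6 kb. Lypd3 (chr7:24636550-24641118, plus strand) and Cnfn (chr7:25367620-25369724, minus strand) lay apart from them on the same chromosome. Ivl (chr3:92570902-92573735, minus strand) and Rptn (chr3:93393699-93399442, plus strand) were 820.0 kb apart in the epidermal differentiation complex, the cluster that holds most envelope precursors. Calm4 was at chr13:3837757-3838673 (plus strand).

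The promoters of 5 members shared a short word. TGANTCA, the letters that AP-1 factors are known to bind and that read the same way on both strands, was searched in windows of 300 bases (250 before to 50 after each gene start in RefSeq, GRCm38.p6). It was found in 7.81% of 32851 windows and in at least 1 window of Ivl, Rptn, Sbsn, Dmkn and Krtdap, out of 8 members with a window. The 130 bases before the start are given here for these 5 genes, because the word lay within this stretch in each and 3 of the genes are neighbours. Each runs 5′ to 3′ on the gene's own strand, with the AP-1 letters in capitals.
Ivl, chr3:92573736-92573865, minus strand: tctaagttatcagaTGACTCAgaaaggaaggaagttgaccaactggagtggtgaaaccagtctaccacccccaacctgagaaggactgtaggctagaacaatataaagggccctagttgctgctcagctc
Rptn, chr3:93393569-93393698, plus strand: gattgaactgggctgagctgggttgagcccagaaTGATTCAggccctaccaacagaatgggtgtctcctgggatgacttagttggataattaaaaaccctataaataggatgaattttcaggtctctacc
Sbsn, chr7:30751341-30751470, plus strand: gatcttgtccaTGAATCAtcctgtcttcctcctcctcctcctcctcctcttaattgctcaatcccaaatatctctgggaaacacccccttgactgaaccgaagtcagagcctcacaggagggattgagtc
Dmkn, chr7:30763626-30763755, plus strand: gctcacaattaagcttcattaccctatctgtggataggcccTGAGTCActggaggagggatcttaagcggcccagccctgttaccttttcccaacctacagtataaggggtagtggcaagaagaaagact
Dmkn, chr7:30776275-30776404, plus strand: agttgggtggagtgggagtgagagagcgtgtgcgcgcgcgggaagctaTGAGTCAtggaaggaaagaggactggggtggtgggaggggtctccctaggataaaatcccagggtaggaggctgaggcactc
Krtdap, chr7:30787775-30787904, plus strand: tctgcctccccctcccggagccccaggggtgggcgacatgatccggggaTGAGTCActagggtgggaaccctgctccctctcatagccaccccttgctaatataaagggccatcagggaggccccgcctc
The word began 116 bases before the start of Ivl, 96 before that of Rptn, 119 before that of Sbsn and 81 before that of Krtdap. Dmkn had it before each of 3 annotated starts, at 89 and 91 bases for a pair of starts that share 1 match and at 82 bases for the start further in, and both matches are shown. Sbsn had a second match from 6 bases before the start, which runs past the end of the stretch shown. TATAAA, the core of the TATA box, was in 13.6% of all windows on either strand and in those of Ivl, Krtdap and Rptn, where it began 29, 30 and 31 bases before the start. AACCNGTT, the letters known for grainyhead factors, was in 2.09% of all windows and in that of Rptn alone among the members. A match of letters says nothing about whether a factor was bound.

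The 7 libraries held 8453 cells, of which 8220 had no UMI (unique molecular identifier, 1 counted transcript) of Ptprc, the gene of CD45, and were used here. The libraries held 730 to 1475 cells each, and their median depth ran from 4299.5 UMIs per cell at week 6 after anti-RANKL to 16809 in the week 2 isotype control. Levels are natural logs of 1 plus the UMIs per 10000 UMIs of a cell, and whole UMIs were recovered from them. Cells were placed in 4 classes in this order: Krt10 above 1.5 (219 cells), Ccl21a above 4 (3392), Aire above 0 (2641) and none of these (1968). Krt10 is a keratin of the suprabasal epidermis, Ccl21a the chemokine of a mature mTEC subset, and Aire the regulator that lets mTECs express genes of other tissues. Where depths had to be made equal, each cell was thinned at random to 2000 UMIs, which left out 172 shallower cells, all of them from weeks 4 and 6 after anti-RANKL. A set of 24 T-cell-like cells, with a median of 4701 UMIs against 8014.5 in all cells without Ptprc, gave the share of detection in cells that should lack the members. No doublet caller was run. The most barcodes that any pair of libraries shared was 7, and none of the shared barcodes had equal totals.

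All 9 members were higher in cells with Krt10 above 1.5 than in the other cells of the same library, by a mean of 0.16 for Ivl to 1.12 for Dmkn over 7 libraries (natural log scale, limma, adjusted p = 0.0048 to 0.0143). These calls depend on a filter that kept genes with a mean of 0.05 in either class. Rptn, Sbsn, Dmkn, Krtdap and Spink5 reached it in both classes, whereas Ivl, Lypd3, Cnfn and Calm4 reached it in the Krt10 class alone and so could enter in 1 direction only. With no filter (14051 genes) the adjusted p of the 9 members was 0.0534 to 0.0762 by limma and none passed, although all 9 had an unadjusted p under 0.05. Over all 9804 genes tested, 2.89% were called higher and 3.73% lower, and the median difference was -0.0072 against 0.73 for the members. On a log2 scale of UMIs summed over a class and given as counts per 1000000 (CPM), the members' differences ran from 1.81 for Rptn to 4.27 for Calm4. The 7 libraries did not contribute alike. In the Aire lineage tracing library, both isotype controls and weeks 2 and 10 after anti-RANKL each member was higher in the Krt10 class, whereas at weeks 4 and 6 the differences of all members lay between -0.09 and 0.09.

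**Figure D1:**
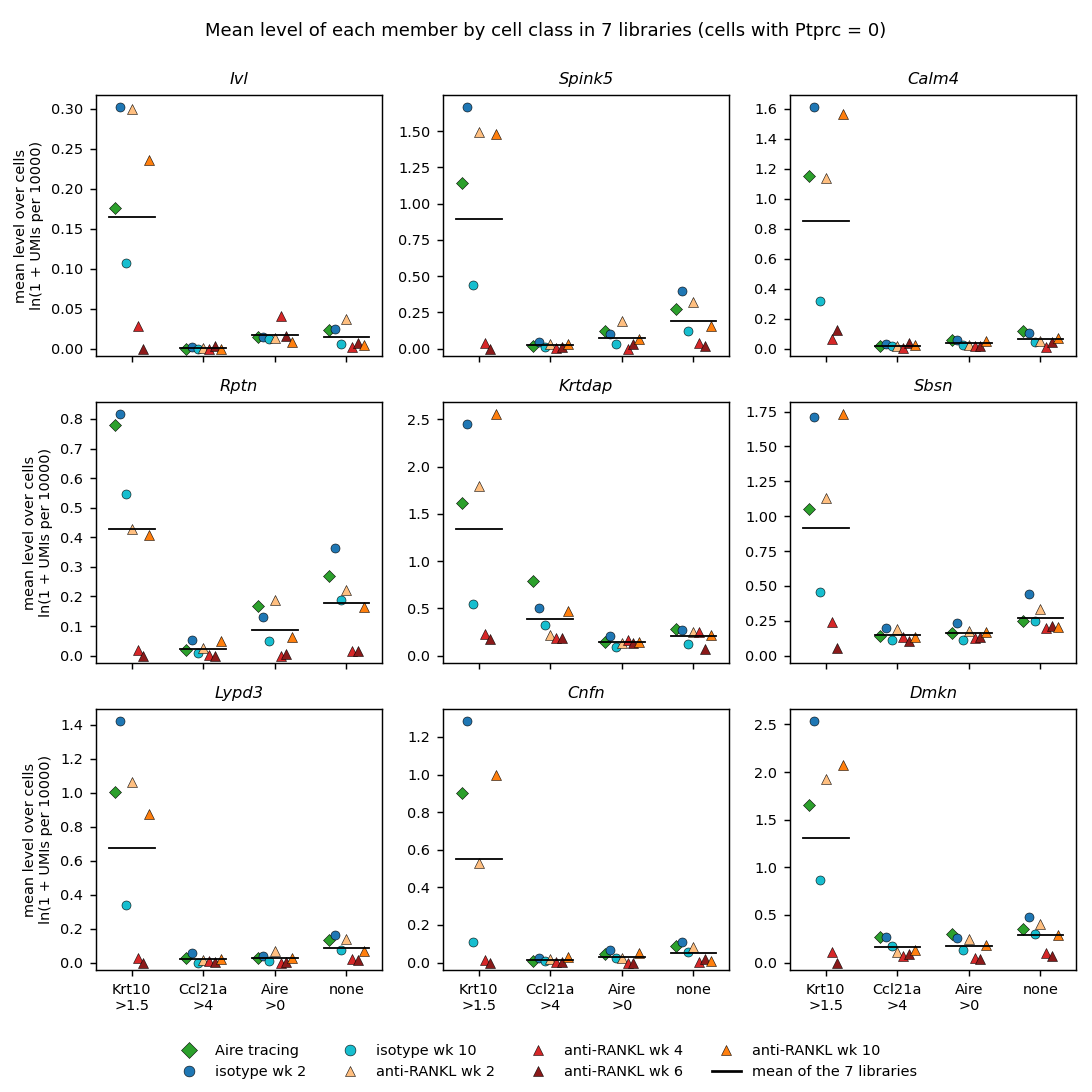
Mean level of each of the 9 members, as the natural log of 1 plus UMIs per 10000 (vertical axis), in 4 cell classes (horizontal axis) of 7 libraries (symbols), with the mean over libraries as a black line. For Dmkn the class with Krt10 above 1.5 reached 2.54 in the week 2 isotype control and stood at 0.11 and 0.00 at weeks 4 and 6 after anti-RANKL.

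On the natural log scale Dmkn had the largest Krt10 difference among the members, while on the log2 scale Calm4 (4.27), Krtdap (3.91) and Lypd3 (3.03) were above its 2.80. Its mean level in the Krt10 class was 2.54 in the week 2 isotype control, 2.08 at week 10 after anti-RANKL, 1.93 at week 2 after anti-RANKL, 1.65 in the lineage tracing library, 0.87 in the week 10 isotype control, 0.11 at week 4 and 0.00 at week 6. Its mean over the libraries was 1.31 in the Krt10 class and 0.19 in the others, a difference of 1.12 ± 0.21 (SE, n = 7 libraries, limma adjusted p = 0.0048). Krtdap, its neighbour on chromosome 7, was at 2.56 at week 10 after anti-RANKL, 2.46 in the week 2 isotype control, 1.79 at week 2 after anti-RANKL, 1.61 in the lineage tracing library, 0.54 in the week 10 isotype control, 0.23 at week 4 and 0.17 at week 6. The difference for Krtdap was 1.08 ± 0.22 and was above 0 in 7 of 7 libraries. The third gene of that cluster, Sbsn, differed by 0.73 ± 0.15 and was lower in the Krt10 class at week 6, by 0.09.

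Calm4, the largest on the log2 scale, stood at 1.61, 1.57, 1.15 and 1.14 in the Krt10 class of the week 2 isotype control, week 10 after anti-RANKL, the lineage tracing library and week 2 after anti-RANKL. It was at 0.32 in the week 10 isotype control, 0.12 at week 6 and 0.06 at week 4, and differed by 0.82 ± 0.15. Spink5 differed by 0.82 ± 0.15 and Lypd3 by 0.64 ± 0.12, each above 0 in 6 of 7 libraries. Of the envelope proteins, Cnfn differed by 0.52 ± 0.11, Rptn by 0.35 ± 0.07 and Ivl by 0.16 ± 0.036. Rptn was highest in the week 2 isotype control and the lineage tracing library, at 0.82 and 0.78, and stood at 0.41 at week 10 after anti-RANKL. An exact two-sided sign-flip test over the 7 libraries, whose smallest possible p is 0.0156, gave 0.0156 for Calm4 and Krtdap, 0.0469 for Sbsn and Dmkn, and 0.0312 for each of the other members.

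**Figure D2:**
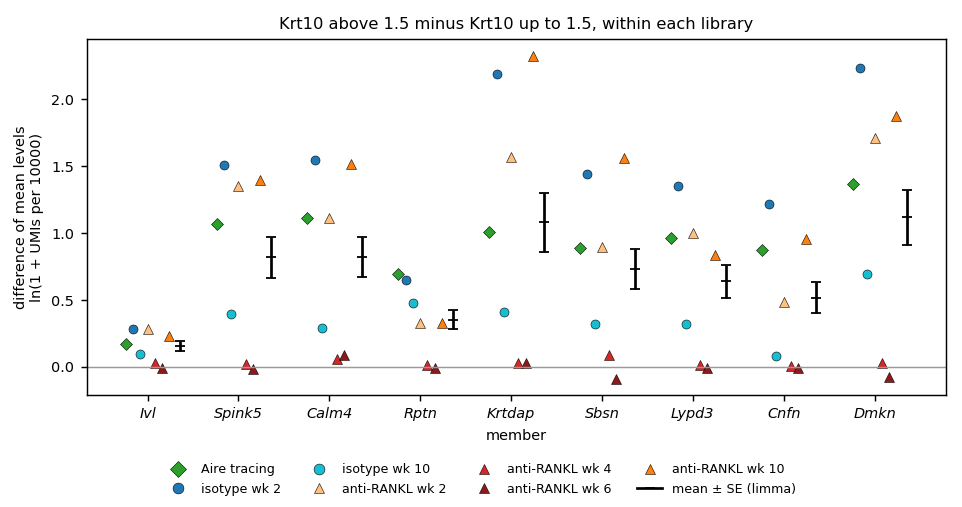
Difference in mean level (natural log of 1 plus UMIs per 10000) between cells with Krt10 above 1.5 and up to 1.5 within each library (symbols), for each member, with the limma mean ± SE over 7 libraries in black. Weeks 4 and 6 after anti-RANKL lie at about 0 for every member, and the other 5 libraries lie above 0.

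Detection is given here over all libraries, of which weeks 4 and 6 gave 57 and 25 cells of the Krt10 class. In the Krt10 class 43.4% of cells had Dmkn, 41.1% Sbsn, 37.0% Krtdap, 35.6% Spink5, 33.8% Lypd3, 30.6% Calm4, 25.6% Cnfn, 21.0% Rptn and 10.5% Ivl. In cells with Krt10 up to 1.5 the shares were 15.7%, 20.3%, 19.4%, 5.87%, 3.75%, 3.51%, 2.96%, 5.79% and 0.80% in the same order. The Krt10 class of single libraries ranged from 0 to 83.3% for Dmkn, 4.0 to 66.7% for Sbsn, 7.02 to 73.3% for Krtdap and 0 to 20.0% for Ivl. Among the 24 T-cell-like cells the share was 25.0% for Krtdap (exact 95% interval 9.77 to 46.7%), 12.5% for Spink5 and 4.17% for each of Dmkn, Sbsn, Lypd3 and Rptn. Ivl, Calm4 and Cnfn were in 0 of these 24 cells, a count that allows up to 12.5%. In the cells of none of the classes Krtdap (13.8%) and Spink5 (9.10%) were at or below the T-cell-like share. At equal depth these shares were 6.44% against 10.0% for Krtdap and 6.23% against 5.00% for Spink5. Lypd3 and Sbsn were each in 5.00% of T-cell-like cells at equal depth. Lypd3 was in 3.09% of the remaining cells, 0.531% of Aire-positive and 0.456% of Ccl21a-high cells. Sbsn was in 9.58%, 4.85% and 4.77% in that order, and Spink5 in 2.35% of Aire-positive and 0.699% of Ccl21a-high cells. With so few T-cell-like cells, detection at these shares was not told apart from background. Ivl was the most restricted in number, with a UMI in 0.0884% of Ccl21a-high cells, 1.51% of Aire-positive cells and 1.07% of the remaining cells.

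The level of Krt10 that defined the class rested on few UMIs at weeks 4 and 6. Of 219 cells, 107 had 1 or 2 Krt10 UMIs (median depth 4003 UMIs), and these included 54 of 57 cells at week 4 and 24 of 25 at week 6. Only 2 of the 107 (1.87%) had 5 or more members, and 81 had none. In the 112 cells with 3 or more Krt10 UMIs (median depth 9211.5), 73 (65.2%, exact 95% interval 55.6 to 73.9%) had 5 or more members. With the class limited to those cells, 5 libraries had enough of them, and the members' differences ran from 0.26 for Ivl to 1.90 for Dmkn. Without the week 4 and week 6 libraries they were 0.21 for Ivl to 1.58 for Dmkn. Markers of T cells summed to 21.4 CPM in the Krt10 class and 20.5 in the other cells, those of B cells to 14.9 and 20.7, and those of myeloid cells to 115 and 393. By library, T-cell markers were higher in the Krt10 class at week 2 after anti-RANKL (83.7 and 16.5), at week 6 (71.8 and 32.2) and in the week 10 isotype control (42.3 and 21.3), and B-cell markers at week 2 after anti-RANKL (44.6 and 12.2). Those of fibroblasts summed to 10.1 and 14.0, with 0 to 49.3 over the Krt10 classes of single libraries, and were higher than in the other cells of the week 10 isotype control (49.3 and 16.3) and of week 2 after anti-RANKL (44.6 and 11.3). Of the 3 fibroblast markers Pdgfra was at 0 in the Krt10 class, and of the 2 endothelial markers (2.98 and 6.96) Cdh5 was at 0 and Pecam1 was not. Epithelial markers were at 3537 and 3878, and the part of other cells in the result was not tested. The call for Ivl was lost with the cutoff of 2 for Krt10 used by the study, after thinning, without all 4 anti-RANKL libraries, or without any 1 of the week 2 isotype control and the week 2 and week 10 anti-RANKL libraries (0.12 to 0.24).

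The members were found together in a small number of cells. As deposited, 4000 of the 8220 cells (48.7%) had at least 1 member, 597 (7.26%) at least 3 and 179 (2.18%, exact 95% interval 1.87 to 2.52%) at least 5. If each member had been detected independently at its own share in each library, 4590, 457 and 12.0 cells would have been counted. At equal depth the excess was larger, with 203 cells with at least 3 members against 36.8 and 82 with at least 5 against 0.0942. The count of cells with at least 3 members was above the independent value in all 7 libraries after thinning. As deposited it was above in 6 of 7, and the week 2 isotype control had 224 cells against 228. Independence ignores that cells differ in type, so the excess describes clustering of the members in cells and no more.

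**Figure D3:**
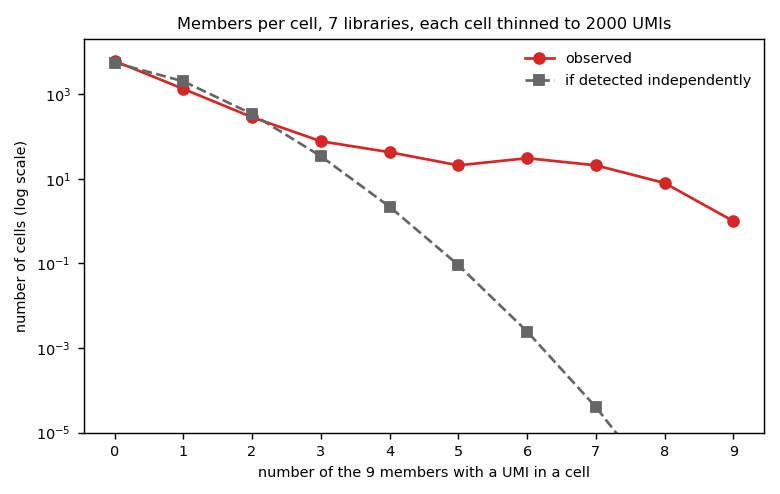
Number of cells (vertical axis, log scale) by how many of the 9 members had a UMI in the cell (horizontal axis), summed over 7 libraries with each cell thinned to 2000 UMIs, as observed (circles) and if each member were detected independently within its library (squares). Fewer cells than the independent value had 1 or 2 members, and more had at least 3, with 203 cells against 36.8.

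Summed over the libraries, each of the 36 pairs of members was found together in more thinned cells than independence gives. The ratio ran from 1.5 for Rptn and Krtdap (37 cells against 24.6) to 17.7 for Ivl and Calm4 (12 against 0.677), with a median of 6.06. Not every pair exceeded the independent value in each of the 7 libraries. Pairs with Ivl rested on few cells, and Ivl and Calm4 exceeded it in 5 libraries, Ivl and Cnfn (3 cells) in 2. Lypd3 and Cnfn were together in 43 cells against 2.66, a ratio of 16.1, and Calm4 had a ratio of 15.1 with both Lypd3 and Cnfn. The median ratio over a member's pairs was highest for Lypd3 (9.53) and lowest for Krtdap (3.58). A widely detected gene cannot reach a high ratio, and the fraction of cells with both members among those with either gave another order, with 0.219 for Spink5 and Lypd3, 0.202 for Lypd3 and Cnfn, 0.2 for Calm4 and Cnfn, 0.198 for Calm4 and Lypd3, and 0.193 for the neighbours Krtdap and Dmkn. By the median of that fraction Spink5 (0.162) and Dmkn (0.1202) came first. The pairs share cells and libraries, and their ratios are a description.

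How much of a member's RNA sat in such cells differed between members. In cells that had at least 4 of the other 8 members, 2.32 to 3.15% of all cells, lay 85.7% of the Calm4 UMIs, 76.1% of Cnfn, 73.4% of Lypd3 and 70.3% of Ivl. Spink5 (62.0%), Sbsn (60.0%), Krtdap (59.2%) and Dmkn (53.6%) were spread more widely, and Rptn had 41.7% of its UMIs there. Rptn was detected in 47.3% of those cells and in 5.06% of the rest, and Calm4 in 42.9% and 3.07%. Dmkn was in 91.1% of those cells but also in 14.7% of the rest, and Sbsn in 80.0% and 19.3%. These shares pool libraries that differed. In the week 10 isotype control such cells held 22.1% of Calm4, 10.9% of Cnfn and 22.0% of Rptn UMIs, and in the week 2 isotype control they held 88.3% of Calm4 and 53.3% of Rptn.

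Cells with 5 or more members were not the same as cells with high Krt10. Of the 179, 75 had Krt10 above 1.5 and 104 had less or none. The share with 5 or more members was 34.2% in cells with Krt10 above 1.5, 1.87% of 2298 cells with a lower level and 1.07% of 5703 cells with none. In the 5 libraries with at least 5 such cells, the mean level of Krt10 had a median of 1.41 in cells with 5 or more members and 0.23 in those with up to 2, and was higher in 5 of 5. Fezf2, a regulator of self-antigens in mTECs, was at 1.40 and 1.23 and was higher in 5 of 5. Aire (0.23 and 1.09) and Ccl21a (1.55 and 2.11) were lower in all 5. Cd80, like Aire a marker of Aire-expressing mTECs, was higher in 2 of 5 (0.11 and 0.24). The class II genes H2-Aa (2.63 and 3.65) and Cd74 (3.54 and 4.98), the thymic keratins Krt14 (1.16 and 1.43) and Krt8 (2.13 and 2.50), and the proliferation gene Mki67 (0.021 and 0.088) were lower in all 5. Krt5, also a keratin of the medulla, was instead higher in 4 of 5 (1.45 and 0.94), and the proliferation gene Top2a was lower in 4 of 5 (0.036 and 0.165). The epithelial marker Epcam was at 2.11 and 1.86 and was higher in all 5. These levels are as deposited, and detection at equal depth did not keep every direction. Epcam was then lower in the lineage tracing library (75.0 and 76.9%) and at week 2 after anti-RANKL (63.9 and 68.6%). Fezf2 was lower at week 2 after anti-RANKL (30.6 and 32.4%). Krt14 was higher in the week 10 isotype control (54.5 and 45.3%), and Mki67 in the lineage tracing library (3.57 and 2.76%). Myeloid markers summed to 664 CPM in cells with 5 or more members, and to 357 in cells with up to 2. They were higher with 5 or more members in the week 10 isotype control (3553 and 453), the lineage tracing library (857 and 221) and the week 2 isotype control (672 and 441), and lower at week 2 (49.4 and 382) and week 10 (420 and 554) after anti-RANKL. T-cell markers summed to 9.16 and 21.4, and the part of these cells in the values above was not tested.

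Aire-positive cells had less of most members than Aire-negative cells when both had Krt10 up to 1.5 and Ccl21a up to 4. Of 8 members tested 7 were lower and none was higher, where 24.1% of 10056 genes were called lower and 27.3% higher. Sbsn stood at 0.16 and 0.27 as a mean over the libraries, a difference of -0.11 ± 0.021 (limma adjusted p = 0.0005), and was lower in 7 of 7 libraries (exact sign-flip p = 0.0156). Dmkn (-0.11 ± 0.022), Rptn (-0.09 ± 0.023) and Lypd3 (-0.06 ± 0.013) were also lower in every library. Spink5 (-0.12 ± 0.027), Krtdap (-0.07 ± 0.020) and Calm4 (-0.03 ± 0.0083) were lower in 6 of 7. Cnfn differed by -0.02 ± 0.010 (adjusted p = 0.0790), and Ivl was too low to be tested. Lypd3, Cnfn and Calm4 reached the filter on the mean in the Aire-negative class alone and could only be called lower. With no filter the same 7 members passed (limma adjusted p = 0.0005 to 0.0149). At equal depth Krtdap, Spink5, Lypd3 and Sbsn were in no larger a share of Aire-positive cells than of T-cell-like cells.

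The Aire-positive cells were the deeper ones in each library, with a median of 7797.5 to 20377 UMIs against 3383.5 to 10379. After thinning 6 members stayed lower and Krtdap (-0.05) did not pass. On the log2 scale of summed UMIs 3825 genes were called lower and 1783 higher, with a median shift of -0.14 for all genes. Relative to that shift the members' differences ran from -0.46 for Cnfn to -1.74 for Spink5. The share of cells with 5 or more members was 3.25% of 1968 cells without Aire, 2.38% of 924 with Aire up to 1.5 and 0.641% of 1717 above 1.5. With at least 3 members it was 8.23%, 10.5% and 7.11%, and with at least 1 member 45.7%, 56.5% and 50.8%. These shares are as deposited, where Aire-positive cells were deeper. At equal depth the share with at least 3 members was 0.546 to 10.7% over the libraries without Aire, 0 to 8.20% with Aire up to 1.5 and 0 to 0.738% above 1.5. For 5 or more members as deposited, cells with Aire up to 1.5 were not below those without Aire at week 2 after anti-RANKL, with 4 of 61 cells (6.56%) against 20 of 361 (5.54%), and week 10 after anti-RANKL had 5 of 181 (2.76%) against 3 of 267 (1.12%).

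Krtdap stood apart from the other members in the Ccl21a-high cells. Its mean level there was 0.79 in the lineage tracing library, 0.51 in the week 2 isotype control, 0.47 at week 10 after anti-RANKL, 0.32 in the week 10 isotype control, 0.22 at week 2 after anti-RANKL, and 0.19 at both week 4 and week 6. Against cells with Ccl21a up to 4, with Krt10 up to 1.5 on both sides, it was higher in 5 of 7 libraries, by 0.20 ± 0.064 (limma adjusted p = 0.0280, exact sign-flip p = 0.0625), where 19% of 9755 genes were called higher. At weeks 2 and 4 after anti-RANKL the difference was -0.0020 and -0.05. The call rested on several libraries and on the scale. It was lost without the lineage tracing library (0.14), either isotype control (0.19 and 0.20) or week 10 after anti-RANKL (0.19), and on the log2 scale of summed UMIs (0.40, adjusted p = 0.40). Pooled over the libraries and thinned to equal depth, Krtdap was in 13.8% of Ccl21a-high cells, 4.89% of Aire-positive cells, 6.44% of the remaining cells and 10.0% of the T-cell-like cells. The libraries did not enter these shares alike. Lineage tracing, with Krtdap in 20.3% of its thinned cells, gave 870 of the 3392 Ccl21a-high and 205 of the 2641 Aire-positive cells.

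Spink5 (-0.10 ± 0.027, adjusted p = 0.0140), Rptn (-0.095 ± 0.025, adjusted p = 0.0118), Sbsn (-0.07 ± 0.012, adjusted p = 0.0026) and Lypd3 (-0.03 ± 0.011, adjusted p = 0.0379) were lower in Ccl21a-high cells in 7 of 7 libraries by limma, where 23.4% of genes were called lower. Dmkn differed by -0.06 ± 0.029 (adjusted p = 0.1036), and Ivl, Calm4 and Cnfn were too low to be tested. Spink5, Rptn and Lypd3 reached the filter on the mean in the class without high Ccl21a alone, so 3 of the 4 calls could come in that direction only. With no filter the 4 passed again (limma adjusted p = 0.0026 to 0.0354). At equal depth Spink5, Sbsn and Lypd3 were in 0.699%, 4.77% and 0.456% of Ccl21a-high cells, and each in 5.00% of the T-cell-like cells. The number of lower calls moved between 3 and 7 with the setting, and when 1 library was left out Lypd3 kept its call only without week 4 or week 6 after anti-RANKL (adjusted p = 0.0280 and 0.0380), lost it without the week 10 isotype control or week 10 after anti-RANKL, and in the other runs was too low to be tested. Co-detection was rare in this class, with 5 or more members in 7 of 3392 cells (0.206%) against 97 of 4609 (2.10%).

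Along the anti-RANKL course the members' RNA was low at weeks 4 and 6 and higher at weeks 2 and 10. The 9 members summed to 921 CPM in the week 2 isotype control, 591 at week 2 after anti-RANKL, 244 at week 4, 164 at week 6, 669 at week 10 and 202 in the week 10 isotype control. The exact counting intervals of these sums did not overlap one another, but they cover counting error only, and cells with 5 or more members carried 23.2 to 73.3% of the UMIs. Single cells also weighed in the week 2 isotype control. For each gene, the cell with the most held 1628 of 6977 Krtdap, 521 of 2964 Sbsn, 552 of 1708 Calm4 and 352 of 1399 Cnfn UMIs. The 2 isotype controls, which had no anti-RANKL, lay far from each other, and week 10 after anti-RANKL was above its own control and below that of week 2. Aire, whose cells the antibody is meant to remove, was at 487, 85.1, 23.3, 211, 477 and 499.5 in the same order, lowest at week 4. Ccl21a was at 2896, 17792, 20334, 13019, 4578 and 4047 in that order. The mix of cell classes thus differed between the libraries, and its part in the members' course was not tested. Which of weeks 4 and 6 was lowest for the members was not settled. Without Krtdap the other 8 summed to 598, 448, 101.8, 114, 421 and 152, but the intervals of weeks 4 and 6 overlapped (94.7 to 109 and 104 to 126), and 1 cell held 50.8% of these UMIs at week 6. Outside cells with 5 or more members the 8 were at 68.5 at week 4 and 56.3 at week 6.

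Member by member the libraries did not fall in 1 order. Krtdap was at 323 CPM in the week 2 isotype control, 143 at both week 2 and week 4 after anti-RANKL, 50.1 at week 6, 248 at week 10 and 50.2 in the week 10 isotype control, so its lowest library was matched by a control. Dmkn was at 150, 129, 34.3, 24.1, 133 and 58.9 in that order. Of the envelope proteins, Rptn was at 51.4 and 49.1 in the week 2 isotype and anti-RANKL libraries, 3.50 at week 4, 0.804 at week 6 (exact interval 0.166 to 2.35), 21.1 at week 10 and 19.0 in its control. Cnfn was at 64.8, 24.4, 1.08 (0.464 to 2.12), 3.75, 41.8 and 11.4, and Ivl at 5.97, 4.58, 0.941, 1.34, 3.79 and 1.47. Weeks 4 and 6 both stood below each of the other 5 libraries for Rptn, Cnfn, Ivl, Dmkn and Lypd3. For Krtdap, Spink5, Sbsn and Calm4 at least 1 of these weeks was above the week 10 isotype control. Ivl at week 6 was close to that control.

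The share of cells with several members followed the same course. Cells with 5 or more members were 65 of 1129 (5.76%, exact 95% interval 4.47 to 7.28%) in the week 2 isotype control, 36 of 1184 (3.04%, 2.14 to 4.18%) at week 2 after anti-RANKL, 3 of 1451 (0.207%, 0.0427 to 0.603%) at week 4, 1 of 719 (0.139%, 0.00352 to 0.772%) at week 6 and 35 of 1172 (2.99%, 2.09 to 4.13%) at week 10. The week 10 isotype control had 11 of 1247 (0.882%, 0.441 to 1.57%) and the lineage tracing library 28 of 1318 (2.12%). The interval of the week 10 control overlapped those of weeks 4 and 6. At equal depth, at least 3 members were in 5.14% of cells in the week 2 isotype control, 3.46% at week 2 after anti-RANKL, 0.522% at week 4, 0.152% at week 6, 3.75% at week 10 and 1.44% in the week 10 isotype control, so that weeks 4 and 6 remained the lowest.

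**Figure D4:**
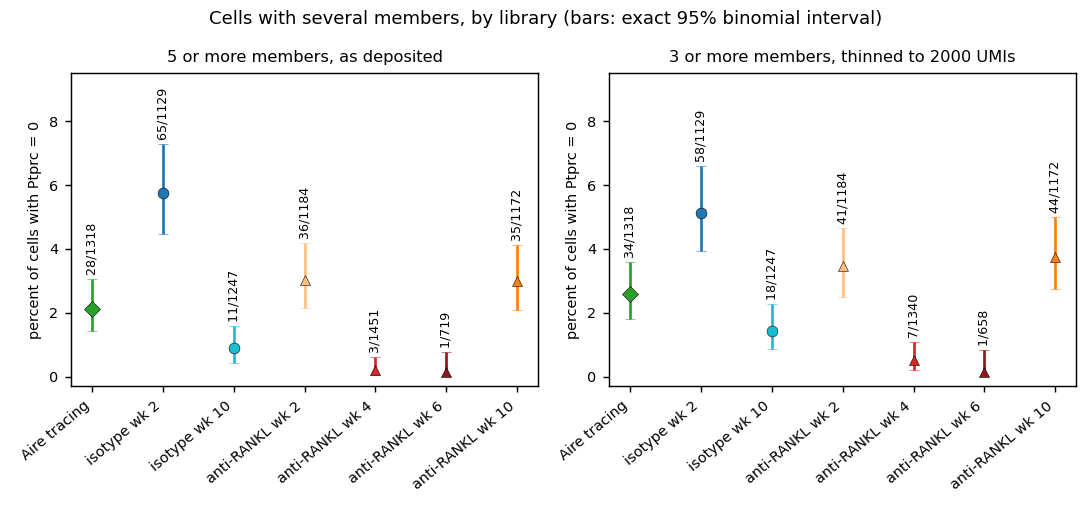
Percent of cells without Ptprc (vertical axes) that had 5 or more members as deposited (left) and 3 or more after thinning to 2000 UMIs (right), by library, with exact 95% binomial intervals as bars that cover counting error only. Weeks 4 and 6 after anti-RANKL have the lowest values, 0.522% and 0.152% with at least 3 members at equal depth, and the week 10 isotype control the next.

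At weeks 4 and 6 a few cells still carried most of the members. At week 4 the 3 cells with 5 or more had 8, 7 and 6 members and 494, 105 and 74 member UMIs out of 10333, 7936 and 4751. The single such cell at week 6 had all 9 members and 240 member UMIs out of 3383. None of the 4 had an Aire UMI, and 3 of the 4 had no Krt10 UMI. These cells held 37.0% of all member UMIs at week 4 and 39.1% at week 6, against 73.3% in the 65 cells of the week 2 isotype control and 23.2% in the 11 of the week 10 control.

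In the lineage tracing library ZsGreen, listed in the data as GFP, was more frequent in cells with many members than in cells with none. A ZsGreen UMI was found in 27 of 28 cells with 5 or more members (96.4%, exact 95% interval 81.7 to 99.9%), 87 of 123 with 3 or more (70.7%, 61.9 to 78.6%), 48.8% of those with 1 or 2 and 201 of 486 with none (41.4%, 36.9 to 45.9%). Of the 27, 20 had no Aire UMI. The cells with many members were also deeper, with a median of 12906.5 UMIs against 7850 in cells with none. With ZsGreen read after thinning, the shares were 75.0% (55.1 to 89.3%) and 17.9% (14.6 to 21.6%). T-cell-like cells had it in 0 of 5, but cells with a Ptprc UMI, which were otherwise left out, had it in 44 of 69 (63.8%, 31.9% thinned). Ccl21a-high cells had it in 324 of 870 (37.2%, 11.4% thinned). Aire-positive cells had it in 176 of 205 (85.9%, 80.3 to 90.3%), and in 52.7% (45.6 to 59.7%) thinned. Both intervals overlapped those of cells with 5 or more members.

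**Figure D5:**
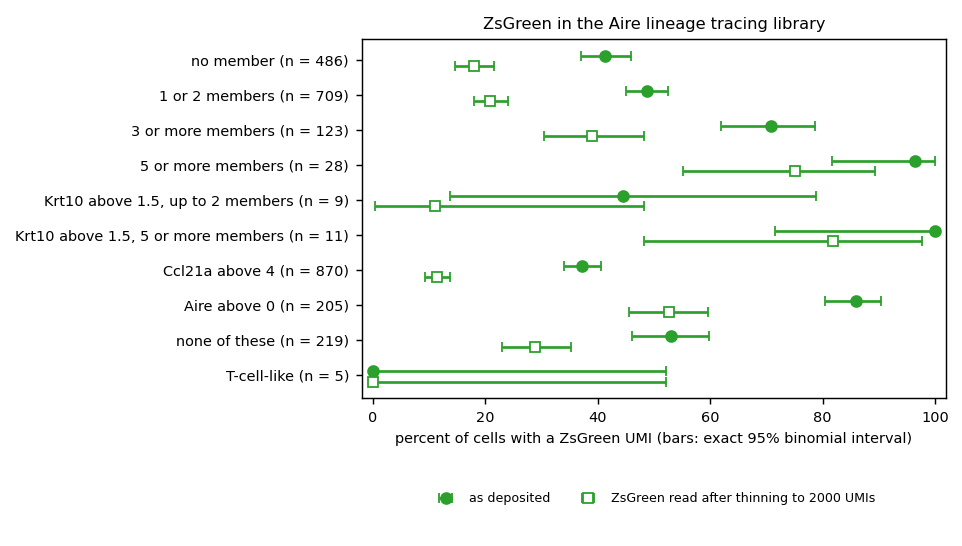
Percent of cells with a ZsGreen UMI in the Aire lineage tracing library (horizontal axis), for groups of cells by number of members and by class (vertical axis), as deposited (filled) and with ZsGreen read after thinning to 2000 UMIs (open), with exact 95% binomial intervals. Cells with 5 or more members stand at 96.4% and 75.0%, and cells with no member at 41.4% and 17.9%.

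As deposited, the share with ZsGreen differed by member. All 10 cells with Ivl had it, as did 82.8% of cells with Rptn, 80.0% with Spink5, 74.1% with Calm4, 72.5% with Cnfn and 70.3% with Lypd3. Sbsn (61.5%), Dmkn (58.4%) and Krtdap (46.1%), the 3 neighbours on chromosome 7, had the lowest shares, and that of Krtdap was close to the 48.1% of all cells. The order changed with depth. With ZsGreen read after thinning it was in 54.0% of cells with Rptn, 52.5% with Cnfn, 51.8% with Spink5, 50% with Ivl, 44.6% with Lypd3 and 40.7% with Calm4, while Sbsn (29.1%), Dmkn (26.9%) and Krtdap (18.7%) remained the lowest. Within Ccl21a-high cells ZsGreen was in 38.7% of those with Krtdap and 36.0% of those without, a difference within their intervals. ZsGreen was in 11 of 11 cells with Krt10 above 1.5 and 5 or more members (71.5 to 100%), and in 4 of 9 with Krt10 above 1.5 and up to 2 members (44.4%, 13.7 to 78.8%). These intervals overlapped, and the median depths were 10609 and 5378 UMIs.

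Of 99 other genes of the cornified envelope and late epidermal differentiation, 39 were high enough to be tested against Krt10, and 20 were higher in the Krt10 class, none was lower and 19 were not called (2.89% of all genes were called higher). Their median difference was 0.16. Of the 39, 14 reached the filter on the mean in the Krt10 class alone and could only be called higher, and they gave 7 of the 20 calls, whereas the 25 that reached it in both classes gave 13. With no filter 48 were tested and 3 were called, Cst6, Dsp and Cebpa. Of 11 keratins 5 could be tested and were called, 3 of them (Krt1, Krt77 and Krt78) admitted through the Krt10 class alone. The largest were Krt77 (0.65), Krt16 (0.58) and Krt17 (0.47), all known from stratified or stressed epithelium. Of 7 desmosome genes 4 were called, among them Perp (0.83), the plakin Dsp (0.80) and plakoglobin Jup (0.51). Of 5 proteases and inhibitors the cystatin Cst6 (0.73, adjusted p = 0.0030) and the kallikrein Klk8 (0.16) were called. The enzymes were called in 3 of 6, namely the skin protease Asprv1 (0.50) and the enzymes of long-chain lipids Elovl4 (0.41) and Cers3 (0.09). Of 44 precursors only 5 could be tested, and Sprr1a (0.35) and the plakin Ppl (0.16) were called. Of 11 transcription factors 4 were called, with Cebpb (0.65), Cebpa (0.37) and the grainyhead factor Grhl1 (0.37) the largest. Against Aire, 34 of the list were tested, with 9 higher and 14 lower (27.3% and 24.1% of all genes). Of the 34, 5 reached the filter in the Aire-positive class alone and gave 3 of the 9 higher calls. Another 5 reached it in the Aire-negative class alone and gave 3 of the 14 lower calls. Such genes could be called in 1 direction only. Against Ccl21a 29 were tested, with 11 higher and 8 lower (19% and 23.4% of all genes). Of the 8, 6 reached the filter in the class without high Ccl21a alone, and 1 of the 11 in the Ccl21a-high class alone.

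The genes most like the members were sought among 7192 genes by the correlation of their mean level with the mean of the 9 over 28 points, the 4 classes in 7 libraries. Tmem45a (r = 0.992), Pdzk1ip1 (0.991), Lipm (0.989), Ly6g6c (0.989), Ly6g6e (0.985), Elovl4 (0.984), Plekhn1 (0.983), Calml3 (0.978), Lgals7 (0.978) and Grhl1 (0.977) came first. Lipm is a lipase of the epidermis and Lgals7 the galectin of stratified epithelium. Each member set against the mean of the other 8 gave 0.994 for Dmkn at the top, 0.958 for Krtdap and 0.842 for Rptn at the bottom. The points share libraries and are led by the 5 libraries with cells of high member level, so these values rank genes and are not a test.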

How the data were processed

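Cells of female mice sorted as EpCAM+ CD45- were sequenced in 7 droplet libraries. The authors counted UMIs with Cell Ranger 2.2.0 on mm10 and, in Seurat 2.3.4, kept genes in at least 3 cells and cells with 200 to 7500 genes and at most 10% mitochondrial reads. The deposited values are natural log values, ln(1 + UMIs per 10000 of a cell). The methods state a scale of 1000, but the values of each cell sum to 10000 once the log is undone, and whole UMIs were recovered within 0.001. The combined tables of several libraries were not used here. A doublet step is not given in the sources used here, and none was run. Cells with a Ptprc UMI were left out.

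Cells were placed in classes by Krt10 (1.5), Ccl21a (4) and Aire (0), and the mean level of every gene was taken per class and library where both classes had at least 5 cells. The differences of class means within a library were tested over the libraries with limma 3.58.1 in R 4.3.3, on genes whose mean reached 0.05 in one class or the other, with Benjamini-Hochberg adjustment over all genes tested and a threshold of 0.05. The libraries differ in treatment, so these p-values measure whether a difference between classes is shared across them. Exact sign-flip tests over the 7 libraries were made for the members, and their p-values are not adjusted over the 9 members. Shares have exact binomial (Clopper-Pearson) 95% intervals and sums of UMIs exact Poisson intervals, which cover counting error only. The floor for a count of 0 was 3 counts. No test was made between conditions, each of which had 1 library. Tested on simulated data for the Krt10 comparison with 9695 genes, the fit called 96% of genes changed 4-fold, 45.8% of those changed 2-fold and 0.653% of unchanged genes. The simulation drew Poisson counts from the same profile, with the same change, in every library. It held no mixture of cell types and no spread of the change between libraries. The members' differences did vary between libraries, so these rates do not carry over to the real data.

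The members, the cutoffs and the gene lists were chosen with earlier results of these data known. The genes named beside the members were, for each role of the envelope list, the 3 with the largest Krt10 difference among those called, and the 10 most correlated with the members. Gene positions were read from GENCODE vM21 and promoter windows from RefSeq. Alternatives were another scale (log2 of CPM plus 10), thinning to 2000 UMIs, no filter, other cutoffs, at least 10 cells a class, removal of cells with Cd3 UMIs and leaving out libraries. Python 3.11.15 with numpy 2.4.6, scipy 1.17.1, pandas 2.3.3 and matplotlib 3.10.9 was used.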

Additional observations from a re-analysis of the deposited data

How the results depend on the processing

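The main Krt10 comparison called 283 genes higher and 366 lower. These counts became 168 and 174 with a Krt10 cutoff of 2, 89 and 56 after thinning, 21 and 109 with no filter on low genes (with 0 members called by limma, though all 9 had an unadjusted p under 0.05), 148 and 80 without the anti-RANKL libraries, and 687 and 569 without the week 4 and week 6 anti-RANKL libraries (chosen after seeing the data). With at least 3 Krt10 UMIs 711 genes were called higher. Leaving out 1 library at a time gave 95 to 434 higher and 129 to 470 lower, with 8 or 9 members higher. The Aire comparison called 1783 higher and 3825 lower on the log2 scale and 1252 higher after thinning. The Ccl21a comparison called 1092 higher after thinning and 3457 lower with no filter. Of the members, 7 were then called lower, as also without weeks 4 and 6, and 0 were called higher on the log2 scale. Leaving out 1 library gave 0 to 1 members higher and 3 to 6 lower. The cause of these moves was not tested, except that fewer libraries enter when libraries are left out. In none of these alternatives did a member reverse its direction.

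The share of cells with at least 3 members was 9.33% for lineage tracing, 19.8% and 3.21% for the week 2 and week 10 isotype controls, and 8.11%, 0.965%, 0.556% and 8.19% at weeks 2, 4, 6 and 10 after anti-RANKL. With at least 2 members it was, in that order, 28.1%, 44.4%, 11.1%, 22.0%, 4.82%, 5.15% and 16.98%, and with at least 5, 2.12%, 5.76%, 0.882%, 3.04%, 0.207%, 0.139% and 2.99%. Thinned, it was 2.58%, 5.14%, 1.44%, 3.46%, 0.522%, 0.152% and 3.75%. Weeks 4 and 6 were the 2 lowest in each. ZsGreen among cells with at least 3 members was 70.7%, with 60.5% for at least 2 members, 96.4% for at least 5 and 39.0% thinned. Classes were compared within each library. Isotype and anti-RANKL libraries of the same week (weeks 2 and 10) were not compared as pairs. Thinned to equal depth, a UMI of Ivl was found in 0.41% of cells and of Lypd3 in 1.64%.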
